A study of Rattus norvegicus with 12 samples.

Results

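The genes described here are a set of 35 that mark developing red blood cells (erythroid cells), including the enzymes that make heme, and they were followed in bone RNA of young female rats. Members were taken as the probe sets whose platform annotation gave exactly 1 gene symbol, that symbol being on the list. By this rule 32 of the 35 genes were measured, by 46 probe sets, among 14217 genes on the array. Ermap, Tspo2 and Trim10 had no such probe set and were not analysed here. The study set a soy diet beside estrogen to ask how each acts on bone before puberty. Female Sprague-Dawley rats received their diets between postnatal days 21 and 34 and fell into 4 groups. SPI rats ate soy protein isolate as the protein source, E2 rats ate the casein diet and received 17β-estradiol, and SPI+E2 rats received both. CAS rats ate the casein diet without estradiol. Estradiol came from an osmotic pump placed under the skin. Each group held 3 arrays, and each array carried a pool of tibia RNA from 2 to 3 rats, taken after the marrow had been aspirated.

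Red cells arise in the marrow from progenitors that answer to erythropoietin. As these mature, the transcription factors Gata1, Tal1 and Klf1 switch on globin, heme synthesis and membrane genes. Heme is built in steps that begin and end in mitochondria and pass through the cytosol between them, and it needs iron that enters through the transferrin receptor. The tibia of a growing rat is filled with red marrow.

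The deposited values are log2 intensities centred for each probe set on its median over the 12 arrays. A value of 0 is thus the middle of the 12 arrays and no absolute level, and levels of different genes cannot be set against each other. Pools of a group lay close together, with a median standard deviation (SD) over the 32 genes of 0.0576 in SPI, 0.0437 in E2, 0.058 in SPI+E2 and 0.036 in CAS. The first SPI pool had the broadest spread of values over all probe sets (SD 0.211, against 0.128 to 0.164 in the other 11 arrays). A change was called where the adjusted p of a linear model over the 4 groups (limma, adjusted over all 14217 genes) was below 0.05.

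One measurement sets the CAS arrays apart from the 9 others and touches each comparison made against them. Eif2s3y, a gene of the Y chromosome, lay between 0.26 and 0.86 in SPI, between 0.0071 and 0.19 in E2 and between -0.37 and -0.0071 in SPI+E2, against -2.20 to -1.82 in CAS, although every array is labelled female. Xist, which is transcribed from the silenced X chromosome, lay between -0.068 and 0.025 in the 9 treated arrays, against 0.18 to 0.28 in CAS. Uty, also of the Y chromosome, changed by -0.18 with SPI (adjusted p = 0.0341), by -0.082 with E2 (adjusted p = 0.427) and by -0.014 with SPI+E2 (adjusted p = 0.909). All 3 CAS arrays lay on the same side, so whatever else set these pools apart cannot be told apart from the treatments in any comparison with CAS, or in the interaction. The comparisons among SPI, E2 and SPI+E2 do not use the CAS arrays other than in the shared estimate of the spread. Eif2s3y differed among treated groups too, by -0.70 in SPI+E2 against SPI (limma, adjusted p = 0.00844), without overlap of the pools. Xist differed there by 0.046 (adjusted p = 0.5). What set these pools apart in Eif2s3y was not tested.

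Most erythroid genes were lower in bone of all 3 treated groups than in CAS bone, and lowest with estradiol. With SPI 23 of the 32 genes fell and none rose, where 14.6% of all genes fell and 10.7% rose. With E2 29 fell and none rose, where 7.23% of all genes fell and 6.98% rose. With SPI+E2 23 fell and none rose, where 7.06% of all genes fell and 5.8% rose. No gene of the set was higher with any of the 3 treatments at an unadjusted p below 0.05 in the limma fit (0 in each), and an ANOVA without moderated variances called 0 higher as well. The median log2 change over the 32 genes was -0.298 with SPI and -0.556 with E2, and -0.317 under SPI+E2, beside medians of -0.01, -0.01 and 0.005 over all genes. Since these are whole-tissue samples, fewer erythroid cells and less RNA per erythroid cell cannot be told apart. The 3 comparisons share the CAS arrays and are therefore not independent of each other.

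In 22 genes the change passed the test with every treatment, and in 3 (Slc25a38, Sptb and Ank1) with none. Epb41, Hbb, Bpgm, Tal1 and Epor passed it with E2 alone, Alas2 with E2 and SPI+E2, and Ppox with SPI and E2. The calls are for means over the probe sets of a gene. Single probe sets of Bpgm, Tal1, Epor, Sptb and Ank1 gave other calls (given below). These overlaps of the 3 tests, which share the CAS arrays, were not counted over all genes, so no background share stands beside them. The arrays of the treated group all lay below the CAS arrays for 23 genes with SPI (23% of all genes did so), for 30 with E2 (18.6%) and for 26 with SPI+E2 (17.4%). Changes of at least 1.5-fold were fewer, with 2 genes lower in SPI (0.457% of all genes), 15 in E2 (0.71%) and 5 in SPI+E2 (0.225%). E2 had the lowest group mean in 29 of the 32 genes and CAS the highest in 28, orders that were not counted over all genes. The median over the 32 genes was 0.007, 0.007 and 0.03 in the SPI pools, -0.233, -0.249 and -0.247 in the E2 pools and -0.045, -0.014 and -0.002 in the SPI+E2 pools, against 0.29, 0.285 and 0.361 in the CAS pools.

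**Figure D1:**
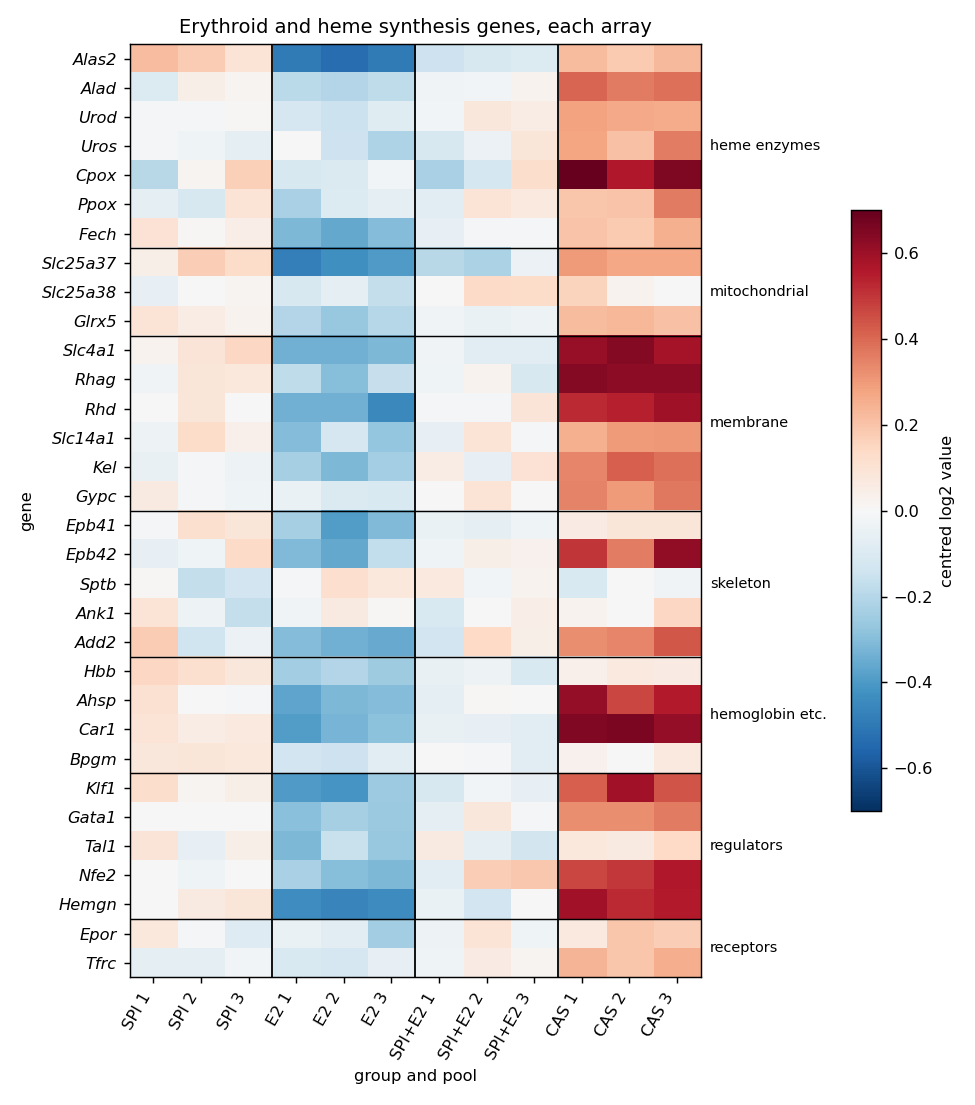
Centred log2 value of each of the 32 measured genes (rows, by role) in each of the 12 arrays (columns, 3 pools a group); red is above the median of the 12 arrays and blue below it. The 3 CAS columns are red in most rows and the 3 E2 columns blue, while SPI and SPI+E2 lie between them, and Sptb and Ank1 show no such pattern.

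Markers of some other cells and of dividing cells moved as well. Of 10 megakaryocyte and platelet genes, 6 were measured, of which 5 fell with SPI and 6 with E2, and 4 under SPI+E2. Their median per array lay between -0.18 and -0.063 in SPI, between -0.418 and -0.356 in E2 and between 0.111 and 0.208 in SPI+E2, against 0.486 to 0.547 in CAS. Of 22 cell division genes, 21 were measured, of which 13 fell with SPI and 21 with E2, and 17 under SPI+E2. The per-array median of these genes lay between 0.005 and 0.098 in SPI, between -0.259 and -0.178 in E2 and between -0.08 and -0.031 in SPI+E2, against 0.266 to 0.272 in CAS. Neutrophil genes had another pattern, with 3 of 6 measured higher with SPI, 3 lower with E2 and 3 higher with SPI+E2. Among 4 measured B cell genes, 2 were higher with SPI, while 3 were lower with E2 and 3 with SPI+E2. Among 4 measured osteoclast genes, 2 were higher with SPI, 1 was lower with E2 and 3 were higher with SPI+E2. Of 8 macrophage genes 0 passed the test with SPI, 1 was lower with E2 and 2 were higher with SPI+E2 (medians 0.017, -0.032 and -0.012). At an unadjusted p below 0.05 in the limma fit 1 macrophage gene was higher and 2 were lower with SPI. Osteoblast genes, which mark the bone-forming cells of the tissue, were 7, and none passed the test with SPI or E2 and 1 fell with SPI+E2 (limma; at an unadjusted p below 0.05 1 was lower with SPI and 1 higher with E2). The part of these cells in the erythroid changes was not tested.

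Because these genes moved together, the sequence in front of them was read from RefSeq promoter windows, 250 bases before to 50 after the annotated start, in the rat build GRCr8. Of the 32 genes 25 had a window. Letters of GATA sites (AGATAA or TGATAA, either strand) were found in 9 of the 25 (36%), where 18.9% of all 33469 windows held them. The CACCC-type letters of Klf factors (CCNCNCCC, either strand, so GC-rich boxes match too) were found in 19 (76%), where 46.3% of all windows held them. The joined letters of an E-box and a GATA site (CTG, then 9 bases of any kind, then GATAA) were found in Rhag and Add2 (8%, where 0.726% of all windows held them). Only 12 of the 25 windows had their start within 100 bases of the gene's annotated 5′ end, a distance chosen after the windows were seen, and of these 5 held GATA letters, 9 Klf letters and 1, that of Rhag, the joined letters. The Add2 window lay 52901 bases from that end. These are descriptions of letters, and binding was not measured. In each class the gene with the largest E2 change among those with a window was looked up, for the 6 classes where that change was largest. The 3 of these 6 windows that met the same distance are printed. They were not chosen by their letters, and they range from a promoter with both kinds of letters to one with neither. Capitals mark the matches, which in Tfrc are 4 overlapping Klf matches in 2 runs, and Epb42 has none.
Rhd, chr5:152370950-152371249, plus strand: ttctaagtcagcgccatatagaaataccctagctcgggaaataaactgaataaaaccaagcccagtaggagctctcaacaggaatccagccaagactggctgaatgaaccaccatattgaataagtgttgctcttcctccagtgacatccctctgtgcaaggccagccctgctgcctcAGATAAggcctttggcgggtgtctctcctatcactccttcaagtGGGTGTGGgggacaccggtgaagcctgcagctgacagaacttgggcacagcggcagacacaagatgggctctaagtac
Epb42, chr3:128451634-128451933, minus strand: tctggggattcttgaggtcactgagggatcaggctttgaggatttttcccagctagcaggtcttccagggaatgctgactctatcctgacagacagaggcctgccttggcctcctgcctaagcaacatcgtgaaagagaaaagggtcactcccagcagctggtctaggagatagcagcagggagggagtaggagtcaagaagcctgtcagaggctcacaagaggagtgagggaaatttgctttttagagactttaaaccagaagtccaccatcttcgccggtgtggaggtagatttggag
Tfrc, chr11:81690269-81690568, minus strand: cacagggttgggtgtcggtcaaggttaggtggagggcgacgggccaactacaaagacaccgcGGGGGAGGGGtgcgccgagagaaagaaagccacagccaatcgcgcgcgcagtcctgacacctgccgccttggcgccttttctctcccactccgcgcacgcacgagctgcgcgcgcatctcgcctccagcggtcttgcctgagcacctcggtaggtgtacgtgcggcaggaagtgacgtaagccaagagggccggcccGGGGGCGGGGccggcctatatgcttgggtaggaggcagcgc
In Rhd the AGATAA run begins at position -72 from the start and GGGTGTGG, the Klf letters on the other strand, at position -28. Rhd changed by -0.93 with E2, Epb42 by -0.77 and Tfrc by -0.32 (log2).

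The 7 enzymes of heme synthesis that were measured all fell with E2 (median -0.537), and 6 fell with SPI (median -0.281) and 6 with SPI+E2 (median -0.303). Alas2, the erythroid aminolevulinate synthase that opens the pathway, was the exception under SPI. Its values were 0.21, 0.18 and 0.10 in the SPI pools, -0.49, -0.54 and -0.49 in the E2 pools and -0.14, -0.11 and -0.10 in the SPI+E2 pools, against 0.22, 0.18 and 0.23 in the CAS pools. The E2 pools formed the lowest group and the SPI+E2 pools the next, without overlap, while the SPI and CAS pools overlapped. With E2 Alas2 fell by 0.72 ± 0.041 (standard error, SE; adjusted p = 3.94e-07), or 1.65-fold, and with SPI+E2 by 0.33 ± 0.041 (adjusted p = 0.000344). With SPI its change was -0.047 ± 0.041 (adjusted p = 0.44), with a 95% interval of -0.135 to 0.042.

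Cpox, the coproporphyrinogen oxidase that acts late in the pathway, fell with each treatment. It read -0.19, 0.018 and 0.17 in the SPI pools, -0.11, -0.10 and -0.018 in the E2 pools and -0.23, -0.12 and 0.12 in the SPI+E2 pools, against 0.70, 0.56 and 0.66 in the CAS pools. Every treated pool lay below every CAS pool, and the treated groups overlapped each other, with a wide spread among the SPI and the SPI+E2 pools. The change was -0.64 ± 0.10 (SE; adjusted p = 0.000568) with SPI and -0.71 ± 0.10 (SE; adjusted p = 0.000313) with E2, and -0.71 ± 0.10 (SE; adjusted p = 0.00068) under SPI+E2. Of the other enzymes, Alad, which joins aminolevulinate units, changed by -0.40, -0.58 and -0.39 with SPI, E2 and SPI+E2. Uros and Urod, which close and trim the ring, fell by 0.31 and 0.27 with SPI and by 0.40 and 0.39 with E2. Ppox, which oxidizes the ring, fell by 0.28 with SPI and 0.38 with E2, and its SPI+E2 change of -0.22 missed the threshold (adjusted p = 0.067). Fech, the ferrochelatase that inserts iron, fell by 0.54 with E2 and by 0.16 with SPI.

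Among the 3 mitochondrial genes that feed heme synthesis, 2 fell with each treatment. Slc25a37 (mitoferrin-1) carries iron into the mitochondrion. It stood at 0.041, 0.17 and 0.13 in the SPI pools, -0.48, -0.43 and -0.40 in the E2 pools and -0.20, -0.22 and -0.041 in the SPI+E2 pools, against 0.30, 0.27 and 0.27 in the CAS pools. The 4 groups did not overlap, in the order E2, SPI+E2, SPI and CAS from low to high. Slc25a37 fell by 0.17 ± 0.053 with SPI (SE; adjusted p = 0.0378), by 0.72 ± 0.053 with E2 (adjusted p = 3.05e-06) and by 0.43 ± 0.053 with SPI+E2 (adjusted p = 0.000332).

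Glrx5, a glutaredoxin of iron-sulfur cluster assembly, showed the same order without overlap. Its values were 0.094, 0.05 and 0.025 in the SPI pools, -0.21, -0.27 and -0.20 in the E2 pools and -0.025, -0.044 and -0.037 in the SPI+E2 pools, against 0.22, 0.23 and 0.21 in the CAS pools. It changed by -0.16 ± 0.036 (SE; adjusted p = 0.00666) with SPI and -0.44 ± 0.036 (SE; adjusted p = 6.89e-06) with E2, and -0.26 ± 0.036 (SE; adjusted p = 0.000951) under SPI+E2. Slc25a38, the mitochondrial glycine carrier, passed the test with no treatment. It measured -0.055, 0.0022 and 0.02 in the SPI pools, -0.11, -0.06 and -0.17 in the E2 pools and -0.0022, 0.13 and 0.13 in the SPI+E2 pools, against 0.16, 0.025 and -0.0045 in the CAS pools. Its E2 pools lay below the CAS pools, by 0.17 (adjusted p = 0.061), while the SPI and SPI+E2 pools overlapped CAS.

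All 6 measured membrane proteins fell with each of the 3 treatments, with medians of -0.47 for SPI and -0.745 for E2, and -0.441 under SPI+E2. Slc4a1 (band 3), the anion exchanger and most abundant protein of the red cell membrane, had the largest change of them with E2, while Rhag had the largest with SPI (-0.59) and with SPI+E2 (-0.67, the same as Slc4a1 to 2 decimals). The values of Slc4a1 were 0.027, 0.088 and 0.15 in the SPI pools, -0.33, -0.33 and -0.32 in the E2 pools and -0.022, -0.076 and -0.079 in the SPI+E2 pools, against 0.61, 0.64 and 0.58 in the CAS pools. No groups overlapped, and the order from low to high was E2, SPI+E2, SPI and CAS. Slc4a1 fell by 0.52 ± 0.041 with SPI (SE; adjusted p = 3.43e-06), by 0.94 ± 0.041 with E2 (adjusted p = 9.1e-08), which is 1.92-fold, and by 0.67 ± 0.041 with SPI+E2 (adjusted p = 2.44e-06).

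Rhd, whose promoter window held both kinds of letters, encodes the rat counterpart of the Rh blood group protein. It read 0.0046, 0.086 and -0.0046 in the SPI pools, -0.34, -0.34 and -0.45 in the E2 pools and -0.01, -0.014 and 0.092 in the SPI+E2 pools, against 0.52, 0.55 and 0.59 in the CAS pools. The E2 pools were the lowest and the CAS pools the highest, and the SPI and SPI+E2 pools lay together between them. The change was -0.52 ± 0.049 (SE; adjusted p = 1.49e-05) with SPI and -0.93 ± 0.049 (SE; adjusted p = 2.14e-07) with E2, and -0.53 ± 0.049 (SE; adjusted p = 5.25e-05) under SPI+E2. Rhag, the partner of Rhd in the membrane, changed by -0.59, -0.84 and -0.67 with SPI, E2 and SPI+E2. Kel, a membrane endopeptidase that carries the Kell antigen, fell by 0.42, 0.64 and 0.35 in that order. Gypc, a glycophorin that ties the membrane to its skeleton, had the smallest E2 change of the class, -0.42. Slc14a1, the urea transporter of red cells, fell by 0.52 with E2 as the mean of probe sets that differed.

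The membrane skeleton was divided, with 2 of 5 genes lower in SPI and 3 in E2, and 2 under SPI+E2. Epb42, which links band 3 to ankyrin, had values of -0.055, -0.028 and 0.13 in the SPI pools, -0.31, -0.36 and -0.17 in the E2 pools and -0.029, 0.044 and 0.028 in the SPI+E2 pools, against 0.50, 0.36 and 0.62 in the CAS pools. The CAS pools lay above all others and the E2 pools below all others, with SPI and SPI+E2 overlapping between. Epb42 fell by 0.48 with SPI (adjusted p = 0.000727), by 0.77 with E2 (adjusted p = 2.37e-05) and by 0.48 with SPI+E2 (adjusted p = 0.00168), each with an SE of 0.075. Add2 (β-adducin), which caps actin at the junctions of the skeleton, stood at 0.18, -0.14 and -0.039 in the SPI pools, -0.30, -0.34 and -0.36 in the E2 pools and -0.13, 0.14 and 0.039 in the SPI+E2 pools, against 0.33, 0.34 and 0.44 in the CAS pools. Here too E2 was lowest and CAS highest, and the first SPI pool was the highest of the treated ones. Add2 changed by -0.37 ± 0.083 (SE; adjusted p = 0.0068) with SPI and -0.70 ± 0.083 (SE; adjusted p = 0.000113) with E2, and -0.35 ± 0.083 (SE; adjusted p = 0.0167) under SPI+E2.

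Epb41, which joins spectrin to actin, fell by 0.39 with E2 (adjusted p = 0.000157), while its SPI change was -0.013 (95% interval -0.117 to 0.092). Sptb (β-spectrin) and Ank1 (ankyrin) form the lattice and its anchor. As means of their probe sets, neither passed the test in any of the 7 comparisons, although single probe sets of both did (given below). Sptb had 0.0095, -0.17 and -0.13 in the SPI pools, -0.0058, 0.12 and 0.074 in the E2 pools and 0.07, -0.019 and 0.027 in the SPI+E2 pools, against -0.11, 0.0027 and -0.022 in the CAS pools. Ank1 had 0.094, -0.035 and -0.17 in the SPI pools, -0.025, 0.061 and 0.009 in the E2 pools and -0.11, 0.0009 and 0.048 in the SPI+E2 pools, against 0.027, 0.0046 and 0.14 in the CAS pools. In both genes each pair of groups overlapped. Sptb was the only one of the 32 genes with a positive E2 change, 0.10, and its 95% interval was -0.017 to 0.226.

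Hemoglobin and the other cytosolic proteins split by treatment: all 4 fell with E2, and 2 of 4 with SPI and with SPI+E2. Car1 (carbonic anhydrase 1), which hydrates carbon dioxide in red cells, gave 0.093, 0.051 and 0.067 in the SPI pools, -0.39, -0.33 and -0.29 in the E2 pools and -0.051, -0.058 and -0.072 in the SPI+E2 pools, against 0.65, 0.66 and 0.62 in the CAS pools. The 4 groups were apart, each spanning a narrow range, with E2 lowest and CAS highest. Car1 fell by 0.57 ± 0.038 with SPI (SE; adjusted p = 1.09e-06), by 0.98 ± 0.038 with E2 (adjusted p = 4.71e-08) and by 0.70 ± 0.038 with SPI+E2 (adjusted p = 1.12e-06). Ahsp, a chaperone of free α-globin, gave 0.11, 0.0009 and -0.012 in the SPI pools, -0.37, -0.32 and -0.31 in the E2 pools and -0.071, 0.0068 and -0.0009 in the SPI+E2 pools, against 0.62, 0.47 and 0.55 in the CAS pools. Its SPI and SPI+E2 pools overlapped, below CAS and above E2. Ahsp changed by -0.51 ± 0.05 (SE; adjusted p = 2.11e-05) with SPI and -0.88 ± 0.05 (SE; adjusted p = 4.38e-07) with E2, and -0.57 ± 0.05 (SE; adjusted p = 3.97e-05) under SPI+E2.

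Hbb (β-globin) did not share the fall with SPI. Its values were 0.14, 0.11 and 0.077 in the SPI pools, -0.24, -0.21 and -0.25 in the E2 pools and -0.051, -0.036 and -0.11 in the SPI+E2 pools, against 0.036, 0.07 and 0.055 in the CAS pools. The SPI pools lay above the CAS pools, the SPI+E2 pools below CAS and the E2 pools lowest, with no overlap. With E2 Hbb fell by 0.29 ± 0.037 (SE; adjusted p = 0.000234), whereas its change was 0.056 ± 0.037 with SPI (adjusted p = 0.307), and under SPI+E2 it was -0.12 ± 0.037 (adjusted p = 0.0608). β-globin genes are near-identical copies, so its single probe set may read several of them. Bpgm, which makes the bisphosphoglycerate that lowers the oxygen affinity of hemoglobin, gave 0.082, 0.086 and 0.075 in the SPI pools, -0.13, -0.14 and -0.072 in the E2 pools and 0.0039, -0.0086 and -0.081 in the SPI+E2 pools, against 0.029, -0.002 and 0.066 in the CAS pools. As for Hbb, the SPI pools were above the CAS pools and the E2 pools below them, and only the E2 change passed the test (-0.15 ± 0.04, adjusted p = 0.0265, against 0.049 ± 0.04, adjusted p = 0.402, with SPI).

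All 5 measured regulators fell with E2 (median -0.785), and 4 of 5 with SPI and with SPI+E2. Hemgn (hemogen), a nuclear protein of red cell precursors, had the largest E2 change of the 32 genes. Its values were 0.0001, 0.064 and 0.085 in the SPI pools, -0.43, -0.46 and -0.44 in the E2 pools and -0.046, -0.14 and -0.0001 in the SPI+E2 pools, against 0.59, 0.52 and 0.55 in the CAS pools. The groups did not overlap, although the SPI and SPI+E2 pools nearly met. Hemgn fell by 0.50 ± 0.044 with SPI (SE; adjusted p = 9.41e-06), by 0.997 ± 0.044 with E2 (adjusted p = 1e-07), which is 2-fold, and by 0.61 ± 0.044 with SPI+E2 (adjusted p = 9.6e-06).

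Klf1, the activator of adult β-globin, stood at 0.12, 0.018 and 0.04 in the SPI pools, -0.40, -0.41 and -0.25 in the E2 pools and -0.11, -0.018 and -0.059 in the SPI+E2 pools, against 0.42, 0.59 and 0.44 in the CAS pools. Again the order was E2, SPI+E2, SPI and CAS, with no overlap. Klf1 changed by -0.42 ± 0.059 (SE; adjusted p = 0.000356) with SPI and -0.84 ± 0.059 (SE; adjusted p = 2.46e-06) with E2, and -0.54 ± 0.059 (SE; adjusted p = 0.000173) under SPI+E2. Gata1, the master regulator of the lineage, fell by 0.34 with SPI and 0.60 with E2, and 0.34 under SPI+E2. Nfe2, a leucine zipper factor of erythroid cells and megakaryocytes, fell by 0.52, 0.79 and 0.41 in the same order. Tal1, a helix-loop-helix factor of early blood cells, fell with E2 by 0.34 (adjusted p = 0.00249) and changed by -0.067 with SPI (95% interval -0.201 to 0.066).

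The surface receptors had the smallest median E2 change of the classes, -0.296. Tfrc (transferrin receptor), which brings in iron and is found on most dividing cells too, gave -0.07, -0.063 and -0.017 in the SPI pools, -0.10, -0.12 and -0.057 in the E2 pools and -0.028, 0.056 and 0.021 in the SPI+E2 pools, against 0.24, 0.20 and 0.25 in the CAS pools. The CAS pools were above all treated pools, and the SPI pools overlapped both other treated groups. Tfrc fell by 0.28 ± 0.039 with SPI (SE; adjusted p = 0.000338), by 0.32 ± 0.039 with E2 (adjusted p = 0.000139) and by 0.21 ± 0.039 with SPI+E2 (adjusted p = 0.00445). Epor, the erythropoietin receptor, gave 0.071, -0.0085 and -0.089 in the SPI pools, -0.046, -0.076 and -0.24 in the E2 pools and -0.037, 0.10 and -0.03 in the SPI+E2 pools, against 0.069, 0.19 and 0.17 in the CAS pools. Only its E2 pools lay wholly below CAS, and only that change passed the test (-0.27 ± 0.065, adjusted p = 0.0158, against -0.15 ± 0.065, adjusted p = 0.109, with SPI and -0.14 ± 0.065, adjusted p = 0.203, with SPI+E2). These are means of 3 probe sets, the first of which fell with each treatment (given below).

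**Figure D2:**
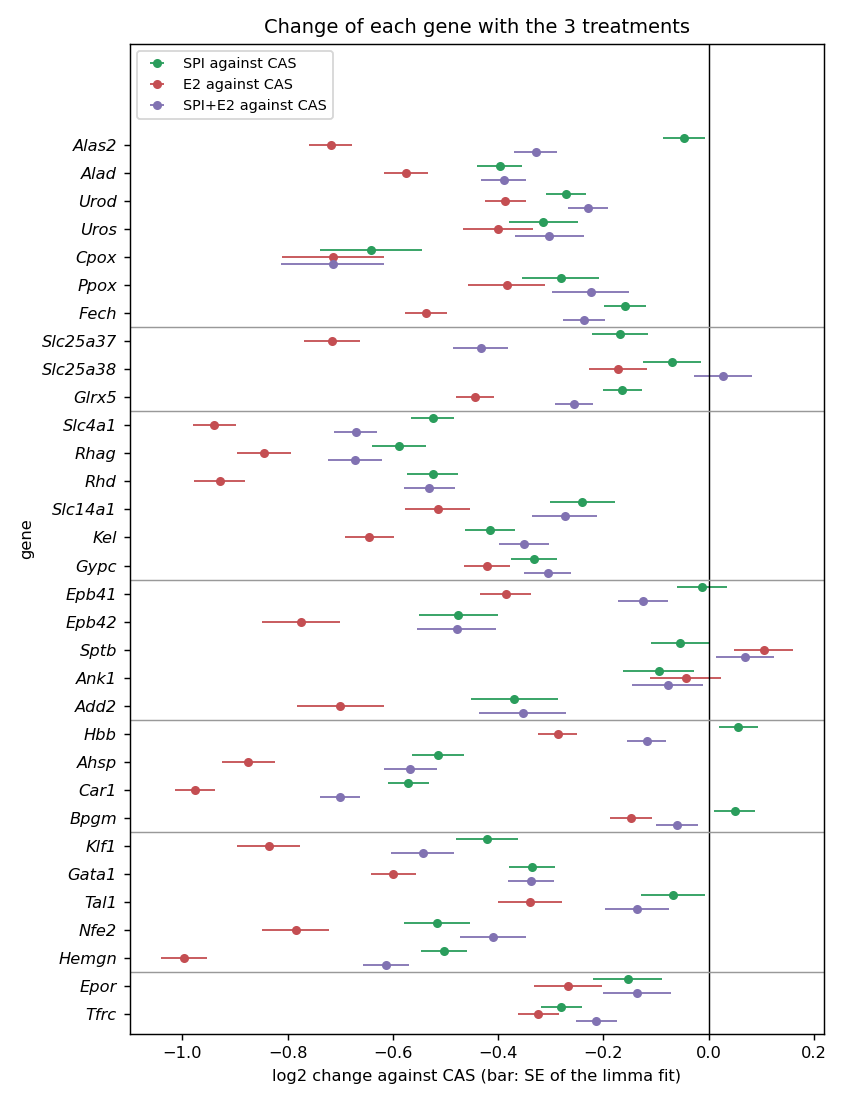
Log2 change of each of the 32 genes against CAS with SPI (green), E2 (red) and SPI+E2 (violet), with the standard error of the limma fit as bars (3 arrays a group). The E2 point lies farthest to the left in most rows, Cpox has its 3 points between -0.71 and -0.64, and the SPI points of Alas2, Epb41, Hbb and Bpgm lie near 0.

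**Figure D3:**
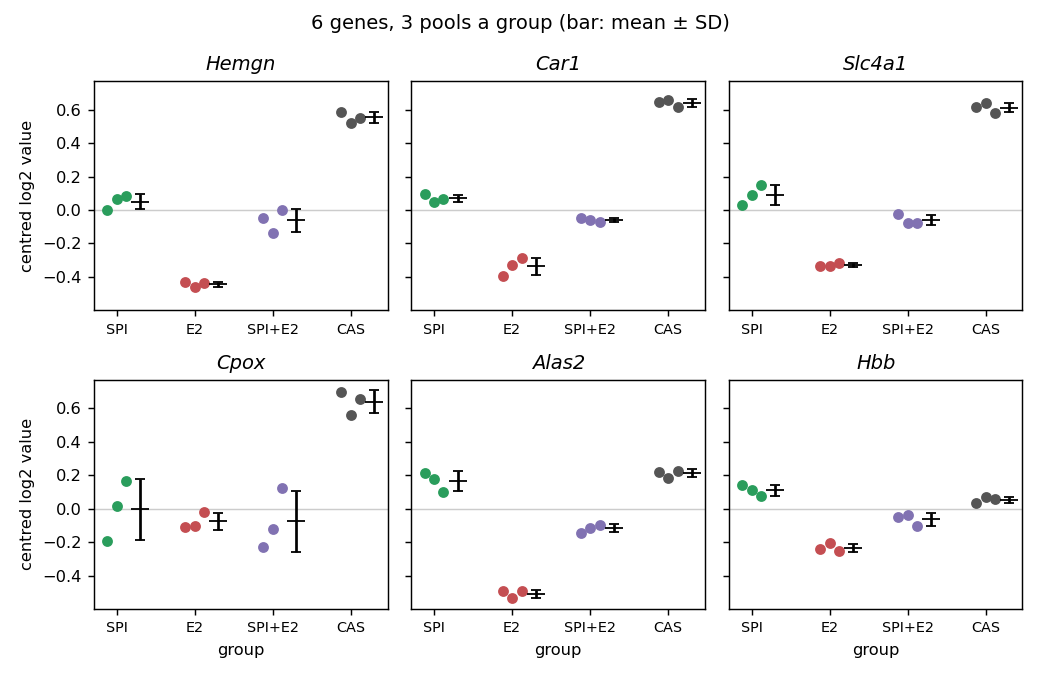
Centred log2 value of 6 genes in each pool (points) by group, with the mean and SD of the 3 pools beside them. Hemgn, Car1 and Slc4a1 are highest in CAS and lowest in E2, Cpox is lower in the 3 treated groups, whose pools overlap, Alas2 in SPI overlaps CAS, and Hbb in SPI lies above it.

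Genes read by more than 1 probe set were 11, and in some the probe sets did not move together. Slc14a1 changed by 0.12 and -0.59 with SPI, by -0.065 and -0.97 with E2 and by 0.094 and -0.64 with SPI+E2 in its 2 probe sets, so its mean rests on the second. For Tal1 the E2 changes were -0.60 and -0.081, and for Epor -0.60, -0.11 and -0.088. In each of these genes 1 probe set carried most of the fall with E2. That of Epor fell with SPI (-0.40, adjusted p = 0.00367) and SPI+E2 (-0.39, adjusted p = 0.00927) too (limma on single probe sets), while its others passed with none. That of Tal1 fell with SPI+E2 (-0.25, adjusted p = 0.00736) and changed by -0.02 with SPI (adjusted p = 0.828). The Bpgm probe sets changed by -0.14 (adjusted p = 0.128) and -0.15 (adjusted p = 0.0552) with E2, and neither passed alone. Ank1 gave -0.51, -0.034 and 0.26 with SPI, and Sptb 0.16, 0.21 and -0.052 with E2, so their gene values average probe sets of opposite sign. The first Ank1 probe set passed the test with SPI (limma on single probe sets, adjusted p = 5.5e-05) and SPI+E2 (-0.25, adjusted p = 0.0149). No Sptb probe set passed with E2. With SPI they changed by -0.18 (adjusted p = 0.0367), 0.18 (adjusted p = 0.318) and -0.16 (adjusted p = 0.0216). Both Tfrc probe sets were lower against CAS with each treatment but differed in size, with -0.44 and -0.12 under SPI (adjusted p = 0.000278 and 0.0721). In SPI against E2 they differed in sign, with -0.066 and 0.15. Those of Kel were 0.49 and -0.033 in that comparison. The first probe sets of Ank1 (-0.47, adjusted p = 0.000146) and Sptb (-0.34, adjusted p = 0.00112) were lower in SPI than in E2 (limma on single probe sets). The other probe sets of Ank1 and Sptb did not pass the test there. Which transcripts each probe set reads was not tested.

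**Figure D4:**
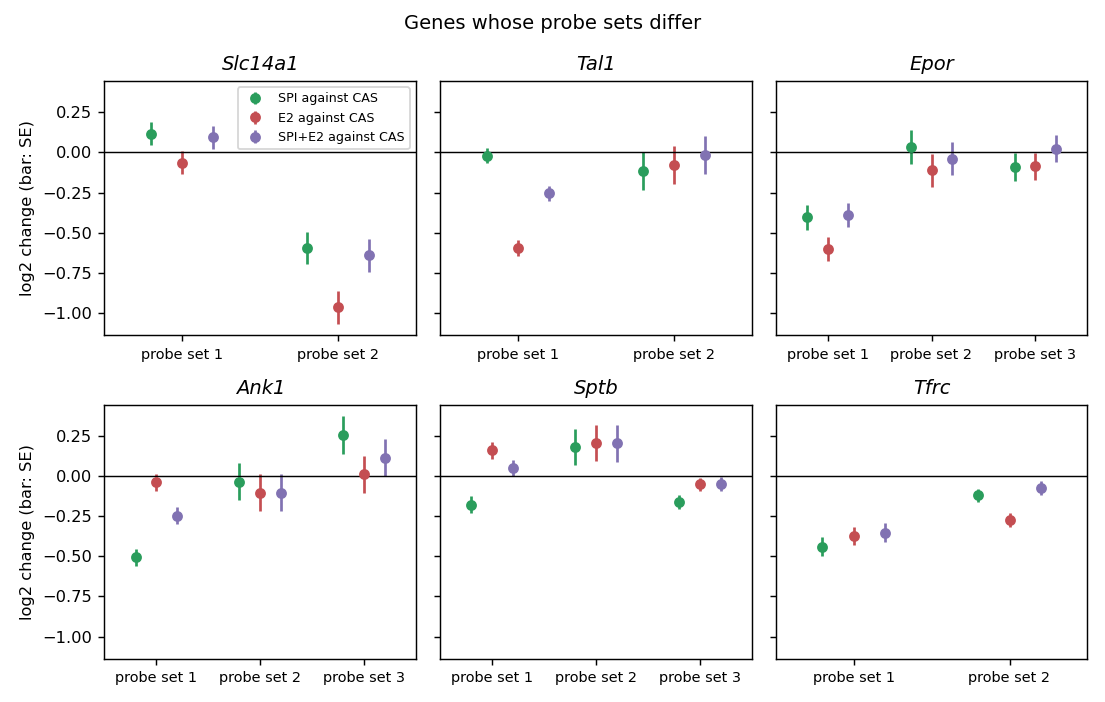
Log2 change against CAS of each probe set of 6 genes with SPI (green), E2 (red) and SPI+E2 (violet), with the standard error of the probe-set fit as bars. In Slc14a1, Tal1 and Epor 1 probe set falls while the other or others lie near 0, and in Ank1 and Sptb the probe sets differ in sign.

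SPI and E2 bone were also set against each other, without CAS. Of the 32 genes 23 were higher in SPI than in E2 and none lower, where 11.1% of all genes were higher and 13% lower, and the median difference was 0.27 (0.009 over all genes). At an unadjusted p below 0.05 in the limma fit 1 gene, Sptb, was lower. Single probe sets of Ank1 and Sptb were lower here as well, as given above. Alas2 differed most, by 0.67 ± 0.041 (SE; adjusted p = 1.2e-06), which is 1.59-fold. Slc25a37 was higher in SPI by 0.55 and Hemgn by 0.49. Of the heme enzymes Alas2, Alad, Urod and Fech were higher in SPI. For Urod the difference was only 0.12 (adjusted p = 0.0489), a call that was lost in 16 of 20 alternative settings. Uros, Cpox and Ppox missed the threshold, with differences of 0.086 (95% interval -0.058 to 0.23), 0.072 (-0.14 to 0.285) and 0.10 (-0.057 to 0.264). The other genes without a call were Slc25a38, Gypc, Sptb, Ank1, Epor and Tfrc. Markers of most other cell types ran the same way. Higher in SPI than in E2 were 4 of 4 measured B cell genes (median 0.627), 5 of 6 megakaryocyte (0.276), 4 of 6 neutrophil (0.313), 16 of 21 cell division (0.272), 3 of 4 osteoclast (0.22) and 3 of 8 macrophage genes (0.077). Of 7 osteoblast genes 0 passed the test (limma; at an unadjusted p below 0.05 2 were lower). The per-array medians of B cell genes lay between 0.219 and 0.293 in SPI, against -0.405 to -0.335 in E2. The part of these cells was not tested.

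Adding estradiol on the soy diet changed few of these genes. In SPI+E2 against SPI 5 of the 32 fell and none rose, where 8% of all genes fell and 9.12% rose, and the median was -0.02 (0.013 over all genes). At an unadjusted p below 0.05 in the limma fit 9 were lower and 1, Sptb, was higher. The 5 that passed the test were Alas2 (-0.28 ± 0.041, adjusted p = 0.000505), Slc25a37 (-0.27 ± 0.053, adjusted p = 0.00482), Hbb (-0.17 ± 0.037, adjusted p = 0.00747), Slc4a1 (-0.15 ± 0.041, adjusted p = 0.0282) and Car1 (-0.13 ± 0.038, adjusted p = 0.0354). The count was 2 when SPI and SPI+E2 alone were fitted, and 3 without the second or the third pool of either group. The call of Car1 was lost in 13 of 20 alternative settings and that of Slc4a1 in 8. The remaining 27 changes lay between -0.12 (Klf1) and 0.12 (Sptb). For Rhd the change was -0.0062, with a 95% interval of -0.113 to 0.101, and for Gata1 -0.002 (-0.096 to 0.092). Markers of other cells moved in both directions here. Higher in SPI+E2 than in SPI were 4 of 6 megakaryocyte genes (median 0.281), 3 of 4 osteoclast (0.13), 2 of 6 neutrophil (0.132) and 1 of 8 macrophage genes (0.072). Lower were 3 of 4 B cell genes (-0.445) and 2 of 21 cell division genes (-0.098), and their part was not tested. Eif2s3y differed in this comparison as well (-0.70, limma, adjusted p = 0.00844).

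Seen from the other side, soy diet under estradiol went with higher erythroid values. In SPI+E2 against E2 23 of the 32 genes were higher and none lower, where 7.32% of all genes were higher and 8.23% lower, and the median was 0.222 (0.018 over all genes). At an unadjusted p below 0.05 in the limma fit 27 were higher and 0 lower. Rhd was higher by 0.40 ± 0.049 (SE; adjusted p = 0.000254), Alas2 by 0.39 ± 0.041 (SE; adjusted p = 7.68e-05) and Hemgn by 0.38 ± 0.044 (SE; adjusted p = 0.000155). All 3 mitochondrial genes were among the 23, Slc25a38 included (0.20, adjusted p = 0.0306). Cpox did not follow, with a difference of -0.0003 and a 95% interval of -0.213 to 0.212. The count was 16 without the second SPI+E2 pool. Markers of other cells were higher too, with 6 of 6 megakaryocyte genes (median 0.616), 5 of 6 neutrophil (0.471), 3 of 4 osteoclast (0.375), 9 of 21 cell division (0.164), 3 of 8 macrophage (0.127) and 1 of 4 B cell genes (0.257). Of 7 osteoblast genes 2 were lower (median -0.071). The part of these cells was not tested.

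The interaction asks whether the change with estradiol differs between the diets. It passed the test in 26 of the 32 genes, all with a positive sign, where 8.03% of all genes were positive and 7.72% negative, and its median was 0.455 (0.042 over all genes). A positive sign here means that the change with E2 was less negative on soy than on casein. For Rhd it was -0.0062 on soy and -0.93 on casein, an interaction of 0.92 ± 0.069 (SE; adjusted p = 2.27e-06). Nfe2 changed by 0.11 with estradiol on soy and by -0.79 on casein (interaction 0.89 ± 0.089, adjusted p = 2.73e-05). Hemgn changed by -0.11 on soy and by -0.997 on casein (interaction 0.89 ± 0.062, adjusted p = 1.35e-06). In sum form, SPI and E2 alone added up to -1.45 for Rhd, while SPI+E2 was -0.53.

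All 7 heme enzymes, the 3 mitochondrial genes and the 6 membrane proteins passed the interaction test, as did Epb41, Epb42, Add2, Ahsp, Car1, Klf1, Gata1, Nfe2, Hemgn and Tfrc. The call of Slc25a38 (0.27, adjusted p = 0.0364) was lost in 11 alternative settings. The 6 without a call were Sptb, Ank1, Hbb, Bpgm, Tal1 (0.27, adjusted p = 0.0546) and Epor (0.29, adjusted p = 0.0577). The SPI+E2 mean lay above the E2 mean in 29 of the 32, all but Cpox, Sptb and Ank1. Since the CAS arrays enter the interaction, the Eif2s3y difference of these pools cannot be told apart from it. Markers of megakaryocytes (6 of 6 measured), cell division (18 of 21), neutrophils (4 of 6), osteoclasts (2 of 4) and macrophages (2 of 8) passed with a positive interaction too, and their part was not tested. Of 4 B cell genes 0 passed (median 0.055), and of 7 osteoblast genes 0 (median -0.024). At an unadjusted p below 0.05 in the limma fit 1 osteoblast gene was negative.

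**Figure D5:**
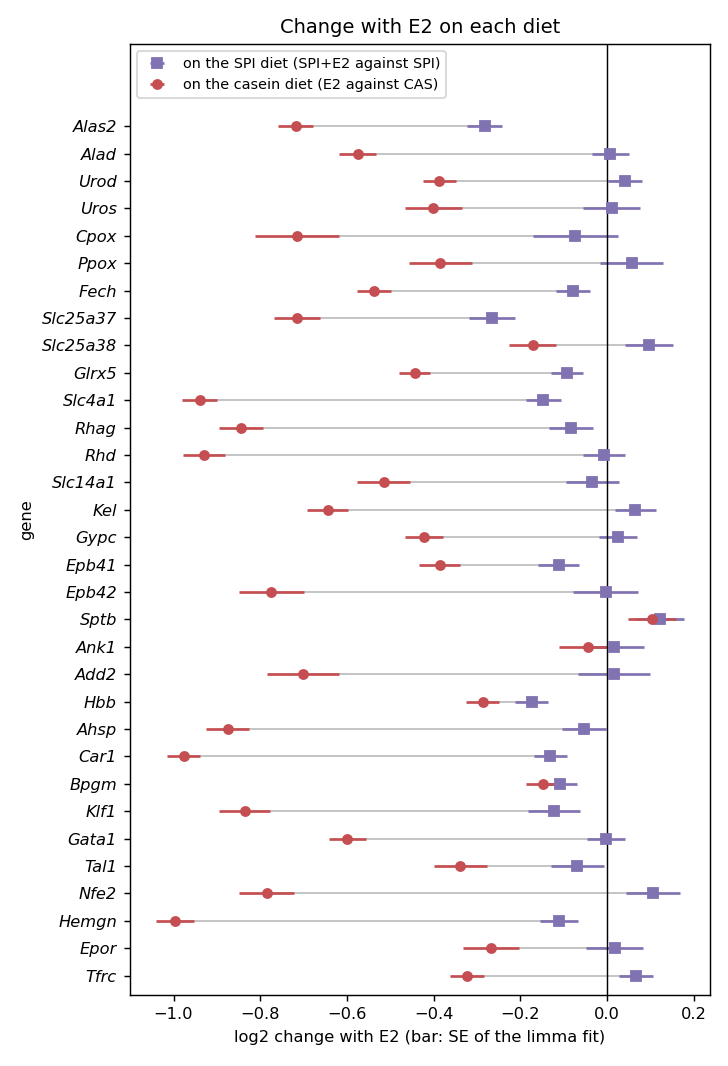
Log2 change with estradiol for each of the 32 genes on the SPI diet (violet squares, SPI+E2 against SPI) and on the casein diet (red circles, E2 against CAS), with the standard error of the limma fit as bars. The casein points reach -0.997 while the SPI points stay between -0.28 and 0.12, and the points of Sptb and Bpgm lie close together.

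Other genes of the same pathways were taken from lists drawn up beside the 35. Of 20 further heme and iron genes 16 were measured. With SPI 9 of them fell and none rose, with E2 9 fell and 1 rose, and with SPI+E2 6 fell and none rose, with medians of -0.188 for SPI and -0.165 for E2, and -0.05 under SPI+E2. Of all genes 14.6% fell and 10.7% rose with SPI, 7.23% fell and 6.98% rose with E2, and 7.06% fell and 5.8% rose with SPI+E2. Of the 16 changes 7 were positive with E2. Blvrb, the biliverdin reductase first found in red cells as flavin reductase, fell by 0.35 with SPI and 0.71 with E2, and 0.42 under SPI+E2. Abcb10, a mitochondrial transporter that stabilizes mitoferrin-1, fell by 0.41, 0.56 and 0.38 in that order. Tfr2, an iron sensor of liver and erythroid cells, fell by 0.58 with E2. Alas1, the form of aminolevulinate synthase found in all cells, gave other values than Alas2: it fell by 0.33 with SPI (adjusted p = 0.00022), rose by 0.18 with E2 (adjusted p = 0.0139) and changed by -0.055 with SPI+E2 (adjusted p = 0.454).

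Of 32 further erythroid genes 23 were measured, of which 10 fell and 1 rose with SPI, 13 fell and none rose with E2, and 7 fell and none rose with SPI+E2. The shares of all genes are those given for the heme and iron genes. At an unadjusted p below 0.05 in the limma fit 3 of the 23 were higher with SPI and 0 with E2, and 0 under SPI+E2, and of the 16 heme and iron genes 0 with SPI and 1 with E2, and 1 under SPI+E2. The medians of the 23 were -0.132, -0.258 and -0.093 in that order. Dyrk3, a kinase of late erythroid precursors, fell by 0.54 with SPI and 0.91 with E2, and 0.70 under SPI+E2. Myb, a factor of dividing progenitors that is shut down as red cells mature, was the one that rose with SPI, by 0.37 ± 0.076 (SE; adjusted p = 0.0042). With E2 Myb fell by 0.51 ± 0.076 (adjusted p = 0.000586), and its SPI+E2 change was 0.052 ± 0.076 (adjusted p = 0.712).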

How the data were processed

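Bone RNA of 4 groups of female rats was hybridised to 12 Affymetrix rat arrays, 3 pools a group, grouped by the sample labels. According to the methods and the submitters' processing notes, the authors processed the scans with GCOS and RMA and then used GeneSpring to scale the log2 data by chip and by gene prior to deposit. Each deposited log2 value is centred on the median of its probe set over the 12 arrays. The base of the logarithm is taken from the methods, since centred values cannot show it. Probe intensities were not used here, so signal over background is unknown, and precision is limited by how many arrays there were. Pools are labelled as separate samples of 2 to 3 rats.

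The table held 31099 probe sets, including 57 controls that were not analysed. In the annotation used 20826 had 1 gene symbol, 436 several and 9780 none. Probe sets of the same single symbol were averaged, which gave 14217 genes. The 4 groups entered one linear model without a block (limma 3.58.1, R 4.3.3). Benjamini-Hochberg adjustment covered all genes, and calls were made below 0.05. The 7 comparisons were each treatment against CAS, the treatments against each other, and the interaction. Steps were tested on simulated data. The 32 genes matched the RefSeq gene table of GRCr8 by gene number with the same symbol, and promoter windows came from RefSeq in that build.

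The genes, role classes, pathway and marker lists were chosen with earlier results of these data known. Per role the 2 genes with the largest change over the 3 treatments are given pool by pool. Genes that go against their class or whose probe sets differ in sign are named too, some of them pool by pool. No columns of sample values were left out (0), and 0 pairs of arrays were identical. Each count was recomputed with quantile normalization, arrays centred on their medians, pool number as a block, only 2 groups in the fit, trend and robust variances, array weights, 1 probe set per gene, probe sets tested singly, the methods' ANOVA, and without each array, and fold counts also with values read as natural logarithms.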

Additional observations from a re-analysis of the deposited data

Results flagged for a closer look

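The change with estradiol differed between the soy and the casein diet in 26 of the 32 genes, by limma's test of the interaction adjusted over all genes. Each value below is the log2 interaction, the change with estradiol on soy minus that on casein. Among the heme synthesis enzymes it was 0.44 for Alas2, 0.58 for Alad, 0.43 for Urod, 0.41 for Uros, 0.64 for Cpox, 0.44 for Ppox and 0.46 for Fech. Among the mitochondrial genes it was 0.45 for Slc25a37, 0.27 for Slc25a38 and 0.35 for Glrx5. Among the membrane proteins it was 0.79 for Slc4a1, 0.76 for Rhag, 0.92 for Rhd, 0.48 for Slc14a1, 0.71 for Kel and 0.45 for Gypc. Among the membrane skeleton it was 0.27 for Epb41, 0.77 for Epb42 and 0.72 for Add2. Among the cytosolic proteins it was 0.82 for Ahsp and 0.85 for Car1. Among the regulators it was 0.71 for Klf1, 0.60 for Gata1, 0.89 for Nfe2 and 0.89 for Hemgn. For the receptor Tfrc it was 0.39. The CAS pools, which differ from the other 9 in Eif2s3y, enter each of these values, and the part of that difference was not tested. Groups of 3 pools are too small for a check of single outlying pools.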

How the results depend on the processing

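With an array left out in turn, the number of the 32 genes that passed the test was 20 to 23 in SPI against CAS, 27 to 30 in E2 against CAS and 21 to 24 in SPI+E2 against CAS, 21 to 23 for SPI against E2, 3 to 5 for SPI+E2 against SPI, 16 to 23 for SPI+E2 against E2 and 25 to 27 for the interaction. The 5 genes of SPI+E2 against SPI became 3 without the second or the third SPI pool, or without the second or the third SPI+E2 pool. They became 2 when those groups alone were fitted, and 3 each with quantile normalization, with trend and robust variances and with probe sets tested singly. Every other count of calls stayed within 1.5 times its main value under every alternative run. The pool numbers did not pair the samples: arrays of the same number in different groups had residual correlations of -0.0809 to 0.26, and 5 of 12 arrays correlated best with their own number. With pool number as a replicate block the counts were 23 in SPI against CAS, 29 in E2 against CAS and 24 in SPI+E2 against CAS, 22 for SPI against E2, 4 for SPI+E2 against SPI, 21 for SPI+E2 against E2 and 25 for the interaction. Gene by gene, 4448 log2 changes were recomputed over 20 settings. Of these 4243 kept their direction and their side of the threshold, 121 no longer passed it, 40 newly passed it, 44 changes that were not called turned sign, and 0 called changes reversed. The calls lost most often were Urod in SPI against E2 (16 settings), Rhag (14) and Tal1 (11) in SPI+E2 against E2, Car1 in SPI+E2 against SPI (13) and Slc25a38 in the interaction (11). Slc25a37 in SPI against CAS was lost in 7 and Bpgm in E2 against CAS in 4. Read as natural logarithms, the values would put 11 genes at 1.5-fold lower with SPI and 20 with E2, and 11 under SPI+E2, in place of 2, 15 and 5, and no test would change. The causes of these shifts were not tested.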

Other observations

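The globin genes beyond Hbb were read mostly by probe sets whose annotation names several near-identical genes, which kept them out of the set, and they were looked up after the other values had been seen. Of 5 such probe sets, 3 were lower with E2, 0 with SPI and 1 with SPI+E2 against CAS, and all 5 were higher in SPI than in E2. Their E2 changes lay between -0.45 and -0.11 (log2). Hba-a3, an α-globin gene read by a probe set of its own, changed by -0.0061 with SPI (adjusted p = 0.957), by -0.40 with E2 (adjusted p = 0.000483) and by -0.25 with SPI+E2 (adjusted p = 0.0153). Hbe1 and Hbz, globins of the embryo, passed the test with no treatment. Why the globin probe sets differ under SPI from Ahsp, Car1 and Slc4a1 was not tested.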
